A study of Mus musculus with 12 samples.

Results

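A group of 9 genes of the interleukin-1 (IL-1) family were chosen by name, as a ligand, antagonist or receptor gene of the family, out of 23329 genes listed in mRNAseq count tables of cultured mouse intestinal stroma. They were the agonist genes Il1a and Il1b, the further ligand genes Il18 and Il33, the antagonist gene Il1rn, and the receptor genes Il1r1, Il1r2, Il1rap and Il1rl1. All 9 were listed, and 8 passed the filter on low counts (over 0.5 CPM, the count scaled to the library total, in every library of 1 or more groups). Il1r2 did not pass and is given by its counts. The cells were grown from the small intestine of C57BL6/J mice, either from E14.5 embryos (6 pooled embryos for each culture) or from adult animals (3 mice), after the epithelium had been taken off. At passages 2 to 3 the cultures received LPS of Escherichia coli O111:B4, or PBS for 6 h. The dose is stated as 10 µg/µl, a unit that could not be checked here and may be a slip, since another LPS assay of the study is given in µg/ml. Stage and treatment made 4 groups of 3 libraries each, and libraries are named by stage, treatment and number (embryonic LPS library 1). The labels call the cells intestinal myofibroblasts.

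Counts assigned to genes ranged from 18850224 to 32672370 per library (median 29738536), so that 3 counts stood for 0.0897 to 0.145 CPM, a limit that covers counting error only. CPM were scaled by TMM factors, and levels of different genes were compared only as CPM per kilobase of exon. The summed CPM of 11 stromal markers (Acta2, Col1a1 and others) lay between 23379 and 44764. The cultures also held RNA of macrophage markers. All 14 of the 14 markers (Ptprc, Csf1r, Lyz2, C1qa and others) had counts in every library, and they summed to 216, 1134 and 2367 CPM in embryonic LPS libraries 1 to 3 and 273, 511 and 3217 CPM in the embryonic PBS libraries. The sums were 221, 17.9 and 52.6 CPM with LPS and 206, 22.1 and 52.0 CPM with PBS in adult libraries 1 to 3. In these bulk samples, fewer cells of a type and less RNA per cell cannot be told apart. Markers of neutrophils summed to at most 5.56 CPM and those of lymphocytes to at most 1.41 CPM, with S100a9, Cd3g and Cd2 at 0 in every library.

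IL-1α and IL-1β are made as precursors by macrophages, epithelium and some stromal cells, and both signal through the receptor IL1R1 together with its partner IL1RAP, using the adaptor MyD88 to reach NF-κB. The receptor antagonist, encoded by Il1rn, occupies IL1R1 without signalling, and IL1R2 binds IL-1 as a decoy. IL-33 signals through ST2, encoded by Il1rl1, again with IL1RAP, while IL-18 uses receptors of its own. In the intestine these cytokines take part in the exchange between epithelium, stroma and resident immune cells during infection and injury. LPS acts through TLR4, which shares MyD88 with the IL-1 receptors.

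In GRCm38.p6 the family is largely clustered. Il1a (chr2:129299609-129310186) and Il1b (chr2:129364569-129371164) lie 54 kb apart on the minus strand of chromosome 2, and Il1rn (chr2:24336860-24351491, plus strand) lies on the same chromosome far from them. Il1r2, Il1r1 and Il1rl1 lie in this order on the plus strand of chromosome 1, with 97 kb between the first 2 genes and 89 kb between the next 2. The 250 bases before an annotated RefSeq start of Il1a, Il1b and Il1rn are shown because these members had the largest fold changes with LPS in embryonic stroma. They are RefSeq sequences of GRCm38.p6, read 5′ to 3′ on the strand of the gene, from chr2:129309973-129310222 (minus strand) for Il1a, chr2:129371140-129371389 (minus strand) for Il1b and chr2:24336610-24336859 (plus strand) for the upstream start of Il1rn. For Il1a and Il1b the start used lies inside the gene coordinates given above, so these sequences lie partly within them. Most of the Il1a window, with all its marked matches, lies within these coordinates. For Il1b only the end of the window nearest the start does. Capitals mark matches to the motifs searched, which were AP-1 (TGANTCA), PU.1 (GAGGAAG), C/EBP (TTNNGCAA), CRE (TGACGTCA) and the NF-κB consensus on both strands and the TATA box (letters TATAAA) on the strand of the gene.
Il1a: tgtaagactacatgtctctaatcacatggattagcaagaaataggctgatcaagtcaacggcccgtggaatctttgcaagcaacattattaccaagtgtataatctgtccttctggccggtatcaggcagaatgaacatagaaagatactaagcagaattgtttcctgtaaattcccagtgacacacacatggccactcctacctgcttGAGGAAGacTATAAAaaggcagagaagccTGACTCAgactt
Il1b: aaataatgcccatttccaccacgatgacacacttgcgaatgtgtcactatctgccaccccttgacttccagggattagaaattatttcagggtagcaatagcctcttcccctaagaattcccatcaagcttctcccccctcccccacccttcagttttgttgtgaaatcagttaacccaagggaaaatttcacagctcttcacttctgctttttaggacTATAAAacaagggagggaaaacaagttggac
Il1rn: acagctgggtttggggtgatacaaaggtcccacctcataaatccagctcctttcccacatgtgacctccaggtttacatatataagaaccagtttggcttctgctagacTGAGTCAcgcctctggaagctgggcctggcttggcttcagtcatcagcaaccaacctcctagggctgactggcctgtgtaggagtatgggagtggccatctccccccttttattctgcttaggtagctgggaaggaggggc
The window of Il1a held a PU.1 match 41 to 35, a TATA match 32 to 27 and an AP-1 match 12 to 6 bases before the start. That of Il1b held a TATA match 31 to 26 bases before the start, and that of Il1rn an AP-1 match 141 to 135 bases before it. None of the 3 windows held a match to the NF-κB, C/EBP or CRE letters, and windows at 2 further starts of Il1rn held no match to any of the 6 motifs. Among 32536 mouse promoter windows of this length, 7.55% held the TATA letters, 6.73% AP-1, 10.7% PU.1, 9.57% C/EBP, 1.56% CRE and 7.28% NF-κB. A match describes letters only and is no measurement of binding.

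With LPS, transcripts of both IL-1 agonists and of their antagonist were higher in every embryonic library than in any embryonic PBS library. In embryonic stroma 3 of the 8 tested members (Il1a, Il1b and Il1rn) passed an adjusted p of 0.05 and all 3 rose, where 2.67% of the 13038 genes tested were called higher and 2.75% were called in either direction. A second fit took same-numbered LPS and PBS libraries of a stage as a block, since they deviated together. With that block, 6 members rose (9.43% of all genes higher), Il18, Il1r1 and Il1rl1 being added. Without it, DESeq2 called 4 in embryonic stroma, Il1r1 and Il1rl1 among them (5.26% of the 13006 genes to which it gave an adjusted p). In adult stroma no member passed without the block (0.598% of all genes were called higher and 0.606% in either direction), while 6 had an unadjusted p under 0.05 (5.58% of all genes) and DESeq2 called 4 (2.26% of the 13006 genes to which it gave an adjusted p). Those 4 were Il1b, Il1rn, Il1rap and Il1rl1. With the block 5 rose in adult stroma (4.69% of all genes higher), namely Il1a, Il1b, Il1rn, Il1rap and Il1rl1. No member fell in either stage under these fits.

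**Figure D1:**
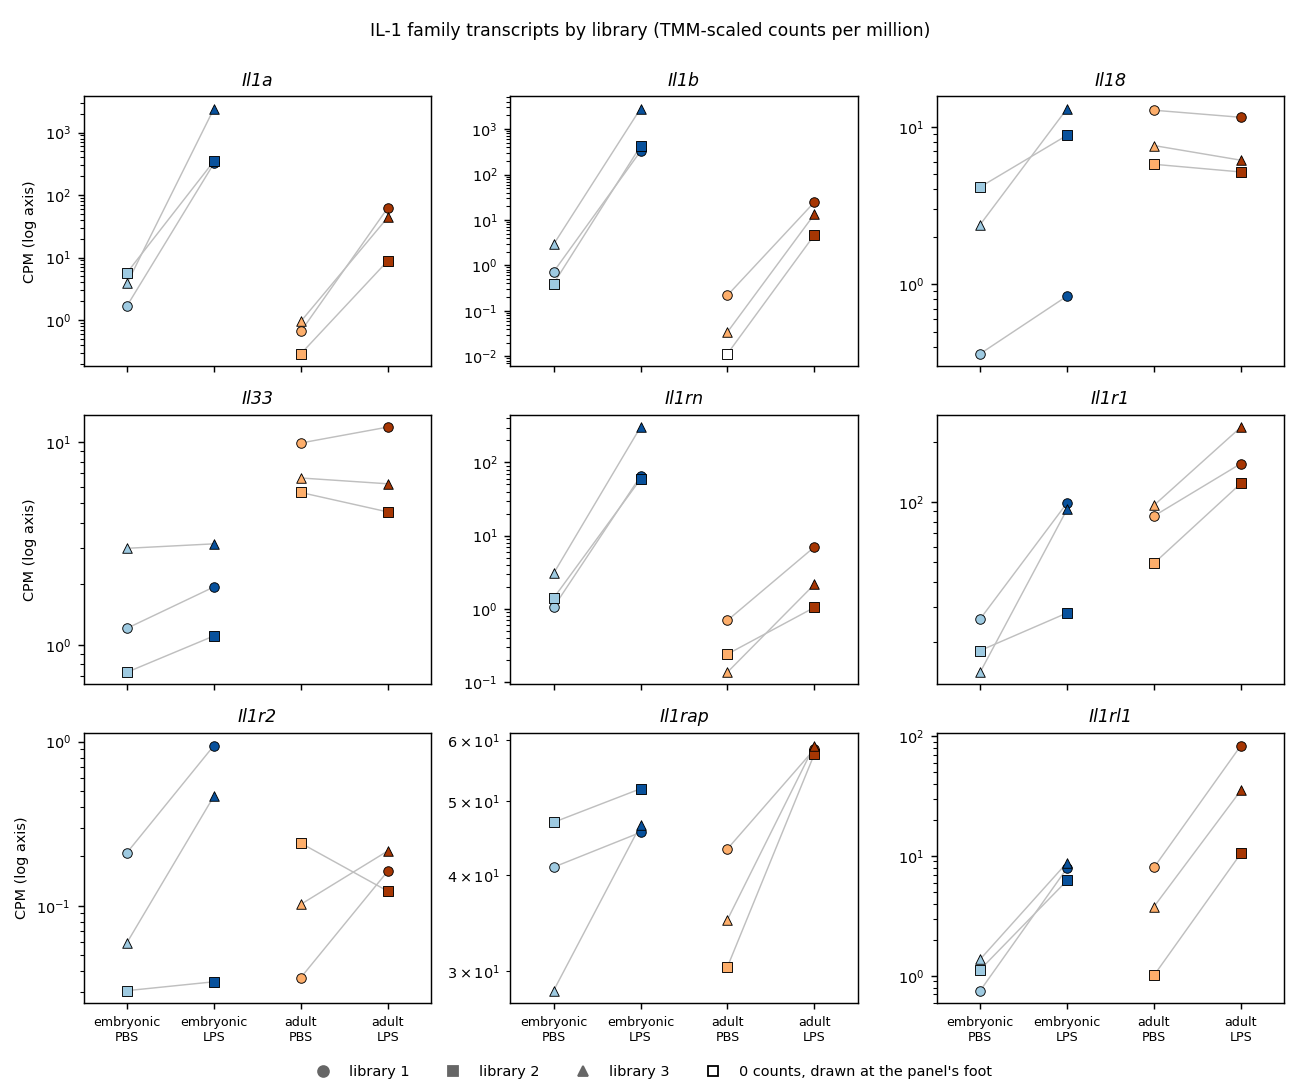
Level of each of the 9 members in the 12 libraries, as TMM-scaled CPM on a log axis that differs between panels. Symbols give the library number, grey lines join same-numbered PBS and LPS libraries, and the open symbol stands for 0 counts of Il1b in adult PBS library 2; Il1a, Il1b and Il1rn of the embryonic LPS libraries lie above all other libraries, while Il33 and Il1r1 are higher in adult than in embryonic PBS libraries.

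Il1b encodes the secreted agonist IL-1β. Its levels were 324, 419 and 2816 CPM in embryonic LPS libraries 1 to 3 and 0.723, 0.396 and 2.90 CPM in the embryonic PBS libraries. Library 3 stood highest with either treatment, and the groups did not overlap. The log2 fold change was 9.78 (SE 1.36, edgeR's quasi-likelihood test, Benjamini-Hochberg adjusted p = 0.00528), and 9.67 with the block (adjusted p = 1.8e-07). In adult stroma Il1b reached 24.6, 4.67 and 13.3 CPM with LPS (756, 152 and 308 counts) and 0.220, 0 and 0.0341 CPM with PBS (6, 0 and 1 counts). Adult PBS thus lay at or near the detection limit and every adult LPS library lay above it. On the log2 scale the change was 7.24 (SE 1.47, edgeR adjusted p = 0.0658), and 7.32 with the block (adjusted p = 1.93e-05).

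Il1a encodes IL-1α, which acts at the cell surface, in the nucleus and when released from damaged cells. It gave 322, 350 and 2418 CPM in the embryonic LPS libraries and 1.69, 5.73 and 3.86 CPM in the embryonic PBS libraries. Embryonic LPS library 3 was again far above the other two, whereas the highest PBS value was that of library 2. This was a log2 fold change of 8.10 (SE 1.18, edgeR adjusted p = 0.00649), and 7.59 with the block (adjusted p = 0.000176). Adult levels were 62.4, 8.89 and 43.9 CPM with LPS and 0.659, 0.289 and 0.955 CPM with PBS. The adult groups did not overlap, and library 2 was lowest in both. The adult log2 fold change was 5.87 (SE 1.12, edgeR adjusted p = 0.052), and 5.88 with the block (adjusted p = 0.00332). The blocked adjusted p was 0.057 without adult pair 1. In embryonic LPS library 1, Il1a had 9188 counts on the sense strand and 16 on the opposite strand. It had 7550 when reads were counted without regard to strand, a difference whose cause was not tested.

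Il1rn encodes the IL-1 receptor antagonist. Embryonic LPS libraries held 64.7, 59.1 and 304 CPM and embryonic PBS libraries 1.05, 1.40 and 3.05 CPM. Library 3 was highest with both treatments and the groups did not overlap. Their difference gave a log2 fold change of 6.28 (SE 1.00, edgeR adjusted p = 0.00936), and 6.07 with the block (adjusted p = 2.83e-06). Adult libraries held 7.0, 1.05 and 2.16 CPM with LPS and 0.696, 0.241 and 0.136 CPM with PBS. All adult LPS values were above the adult PBS values, and library 1 was highest in both groups. The adult log2 fold change was 3.23 (SE 1.02, edgeR adjusted p = 0.388), and 3.26 with the block (adjusted p = 0.00217). It did not pass with the block without adult pair 1 (adjusted p = 0.0724).

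When embryonic libraries were fitted without the adult ones and without the block, none of Il1a, Il1b and Il1rn passed (edgeR adjusted p = 0.0977, 0.102 and 0.0977). The Il1rn call also ended without embryonic PBS library 1 (log2 fold change 6.00, adjusted p = 0.0601). DESeq2 gave no adjusted p for Il1a. Adult libraries fitted alone, without the block, passed Il1a and Il1b (edgeR adjusted p = 0.0314 and 0.0276).

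**Figure D2:**
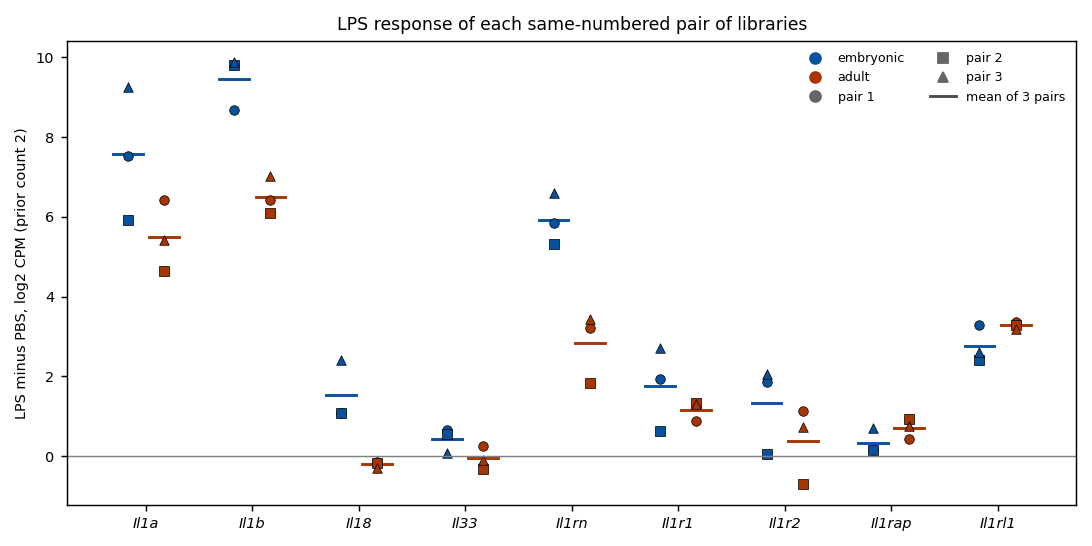
Difference between LPS and PBS in log2 CPM (prior count 2) for each same-numbered pair of libraries, with embryonic pairs in blue, adult pairs in brown and bars for the mean of 3 pairs. The embryonic differences of Il1b, Il1rn and Il18 lie wholly above the adult ones, and the adult differences of Il1rl1 lie between 3.20 and 3.37.

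Il18 and Il33 encode the other ligands examined, and neither passed the test without the block in either stage. Il18 encodes a cytokine that is stored as a precursor and cut by caspase-1. It gave 0.841, 8.84 and 13.0 CPM in embryonic LPS libraries 1 to 3 against 0.362, 4.15 and 2.39 CPM in the same-numbered PBS libraries. Each embryonic LPS library was above its own PBS partner, but the groups overlapped, and library 1 was the lowest of its group with either treatment. The log2 fold change was 1.72 (SE 0.93, edgeR adjusted p = 0.619), and 1.66 with the block (adjusted p = 0.00677). Adult stroma held 11.5, 5.17 and 6.14 CPM with LPS and 12.7, 5.78 and 7.60 CPM with PBS. Here each LPS library was slightly below its partner, with a log2 fold change of -0.20 (SE 0.90, edgeR adjusted p = 1) and -0.21 with the block (adjusted p = 0.75). Higher values in all 3 embryonic pairs with lower values in all 3 adult pairs were found in 1.65% of all genes. Il33 encodes a nuclear alarmin of stromal, endothelial and epithelial cells. Its levels were 1.93, 1.11 and 3.15 CPM with LPS and 1.21, 0.732 and 2.99 CPM with PBS in embryonic stroma. The groups overlapped and the log2 fold change was 0.32 (SE 0.57, edgeR adjusted p = 0.999; 0.263 with the block). Adult Il33 was at 11.9, 4.52 and 6.22 CPM with LPS and 9.89, 5.64 and 6.65 CPM with PBS. Pairs moved in both directions, with a log2 fold change of 0.03 (SE 0.56) and, with the block, -0.04 (adjusted p = 0.955).

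Among the tested receptor genes, Il1rl1 had the largest fold change with LPS in both stages. Il1rl1 encodes ST2, the IL-33 receptor, whose membrane-bound and soluble forms gene counts do not separate. Embryonic levels were 7.92, 6.25 and 8.82 CPM with LPS and 0.753, 1.13 and 1.38 CPM with PBS. The 3 LPS values were close to each other (coefficient of variation 17.0%) and far from the PBS values. The difference was 2.81 on the log2 scale (SE 0.80, edgeR adjusted p = 0.122, DESeq2 adjusted p = 0.00396), and 2.82 with the block (edgeR adjusted p = 3.18e-05). Adult levels ranged more widely, with 83.3, 10.5 and 35.3 CPM for LPS and 8.02, 1.01 and 3.78 CPM for PBS. The groups did not overlap, and the LPS to PBS ratio was 10.4, 10.4 and 9.32 in pairs 1 to 3 although the PBS levels differed. The adult log2 fold change was 3.32 (SE 0.79, edgeR adjusted p = 0.133, DESeq2 adjusted p = 0.000476), and 3.32 with the block (edgeR adjusted p = 1.93e-05).

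Il1r1 encodes the signalling receptor for both agonists. Embryonic LPS libraries held 99.3, 27.9 and 92.3 CPM and PBS libraries 26.1, 18.1 and 14.1 CPM. Libraries 1 and 3 stood apart from the PBS libraries, while LPS library 2 lay just above the highest PBS value. The log2 fold change was 1.91 (SE 0.47, edgeR adjusted p = 0.0679, DESeq2 adjusted p = 0.00209), and 1.77 with the block (edgeR adjusted p = 0.0123). Without the block it passed once embryonic LPS library 2 was left out (2.30, adjusted p = 0.00884), and with the block it did not pass without embryonic pair 1 (adjusted p = 0.0685). Adult Il1r1 stood at 156, 124 and 238 CPM with LPS and 85.4, 49.5 and 96.6 CPM with PBS. All adult LPS values were above all PBS values, and the log2 fold change was 1.16 (SE 0.46, edgeR adjusted p = 0.687; 0.0783 with the block). With the block it passed without embryonic pair 2 (adjusted p = 0.0047) or embryonic pair 3 (adjusted p = 0.0129).

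Il1rap encodes the co-receptor shared by IL1R1 and ST2. It was the steadiest member, at 45.5, 51.8 and 46.4 CPM with LPS and 41.0, 46.9 and 28.3 CPM with PBS in embryonic stroma. The groups overlapped, and the log2 fold change was 0.31 (SE 0.18, edgeR adjusted p = 0.682; 0.162 with the block). Adult levels were 58.4, 57.5 and 59.0 CPM with LPS and 43.3, 30.4 and 35.0 CPM with PBS. The adult groups did not overlap, and the LPS libraries differed from each other by a coefficient of variation of only 1.28%. On the log2 scale the change was 0.69 (SE 0.18, edgeR adjusted p = 0.195), and 0.70 with the block (adjusted p = 0.0244). The blocked call ended without adult pair 1, 2 or 3 (adjusted p = 0.0595, 0.156 and 0.185).

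Il1r2 encodes the decoy receptor and was counted 27, 1 and 12 times in embryonic LPS libraries 1 to 3 and 7, 1 and 2 times in the PBS libraries. Adult libraries held 5, 4 and 5 counts with LPS and 1, 5 and 3 with PBS. The highest group mean was that of embryonic LPS (0.482 ± 0.456 CPM, SD, n = 3), which rested on libraries 1 and 3. Without the filter on low counts (18810 genes with any count), its embryonic log2 fold change was 2.20 (SE 1.00, edgeR adjusted p = 0.585; 0.0775 with the block), and a difference was not detectable at this depth.

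Across the family, in 5 of the 8 tested members (Il1a, Il1b, Il1rn, Il1r1 and Il1rl1) every embryonic LPS library was above every embryonic PBS library, which held for 7.58% of all genes. In adult stroma this was so for 6 members, the same 5 and Il1rap, against 9.1% of all genes.

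The response to LPS was also compared between stages, by the stage by LPS interaction. No member passed it, and no gene was called at all (0% of 13038), while 0 members and 2.25% of all genes had an unadjusted p under 0.05 and DESeq2 called 0 members and 0.192% of all genes. With the block, 0 members passed, 0.844% of all genes did, and 3 members (Il1b, Il18 and Il1rn) had an unadjusted p under 0.05, as did 8.92% of all genes. Their blocked interactions were 2.35 for Il1b (edgeR adjusted p = 0.475), 1.87 for Il18 (adjusted p = 0.0789) and 2.82 for Il1rn (adjusted p = 0.088), all larger in embryonic stroma. In the same 3 genes every embryonic pair difference was above every adult one, as for 9.66% of all genes. For Il1rl1 the interaction was -0.51 (SE 1.07, edgeR adjusted p = 1), and for Il1a 2.23 (SE 1.37, adjusted p = 1).

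The stages were also compared at baseline. Of the 8 tested members, 1 passed with PBS, Il1r1, which was lower in embryonic stroma (2.57% of all genes were called lower and 4.08% in either direction). Embryonic PBS libraries held 14.1 to 26.1 CPM of Il1r1 and adult PBS libraries 49.5 to 96.6 CPM, without overlap. On the log2 scale the difference was -1.99 (SE 0.47, edgeR adjusted p = 0.0466). The call ended in 10 of the 12 fits that left out 1 library, which were all but those without embryonic LPS library 1 or 2, with adjusted p up to 0.158. It also ended without the filter on low counts (adjusted p = 0.0547). Il33 was lower in embryonic than in adult PBS libraries in every case (0.732 to 2.99 against 5.64 to 9.89 CPM), with a log2 fold change of -2.17 (SE 0.59, edgeR adjusted p = 0.0673), and DESeq2 gave an adjusted p of 0.00377. Without embryonic PBS library 3 the edgeR adjusted p was 0.0402. In all, 3 members (Il18, Il33 and Il1r1) lay below and 3 (Il1a, Il1b and Il1rn) lay above the adult libraries without overlap, against 11.9% and 12.4% of all genes. Log2 fold changes of the latter were 2.52, 3.84 and 2.33 (edgeR adjusted p = 0.209, 0.199 and 0.244), and that of Il18 was -1.92 (adjusted p = 0.292). DESeq2 passed Il1b (3.94, adjusted p = 0.0317).

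With LPS, 3 of the 8 tested members passed between the stages, all higher in embryonic stroma (3.04% of all genes were called higher and 5.31% in either direction). The log2 fold changes were 6.38 for Il1b (SE 1.17, edgeR adjusted p = 0.0179), 5.38 for Il1rn (SE 0.95, adjusted p = 0.0156) and 4.74 for Il1a (SE 1.00, adjusted p = 0.0279). For Il1b and Il1a no call was left without adult LPS library 1, 2 or 3 (adjusted p = 0.0532, 0.0574 and 0.0882 for Il1b and 0.0699, 0.0693 and 0.115 for Il1a). The Il1a call also ended without embryonic LPS library 3 (log2 fold change 3.11, adjusted p = 0.0544), and the Il1rn call without adult LPS library 3 (adjusted p = 0.0838). Il1rl1 (6.25 to 8.82 against 10.5 to 83.3 CPM), Il33 and Il1r1 lay wholly below the adult LPS libraries, as did Il1rap. Their log2 fold changes were -2.49 for Il1rl1 (edgeR adjusted p = 0.0879), -1.87 for Il33 (adjusted p = 0.0909), -1.24 for Il1r1 (adjusted p = 0.149) and -0.28 for Il1rap (adjusted p = 0.413). DESeq2 passed Il1rl1 (adjusted p = 0.0076) and Il33 (adjusted p = 0.016). Non-overlapping members were thus 3 above and 4 below, where 13.4% and 11.8% of all genes were. Both stage comparisons share libraries with the LPS comparisons.

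Between the stages, 1 of the 14 macrophage markers (Cx3cr1) passed with PBS as higher in embryonic stroma, where 1.51% of all genes were called higher, and with LPS 0 did (3.04% of all genes). Their median log2 fold changes were 4.37 and 4.08, against 0.02 over all genes tested in both. Libraries of both stages with like marker sums were also set side by side. Embryonic LPS library 1 and adult LPS library 1 had marker sums of 216 and 221 CPM. Their Il1b levels were 324 and 24.6 CPM, their Il1a levels 322 and 62.4 CPM and their Il1rn levels 64.7 and 7.0 CPM. The marker sums of these libraries differed in make-up. Lyz2 (43.1 against 104 CPM), Csf1r (13.1 against 18.2) and Mrc1 (1.05 against 2.41) were lower in the embryonic library. So were C1qa (13.6 against 15.0) and Cd68 (6.41 against 6.87). Ptprc (19.6 against 6.45 CPM), Emr1 (18.7 against 9.64), Fcer1g (17.7 against 7.10) and Laptm5 (18.2 against 7.78) were higher in it. C1qb (22.7 against 17.8), C1qc (19.6 against 15.4), Itgam (6.27 against 3.35) and Cx3cr1 (5.99 against 2.12) were also higher in it. More of these markers were thus higher than lower in the embryonic library, and Lyz2 differed most in CPM. The comparison rests on 1 library of each stage and carries no test. Within embryonic LPS, library 3 had both the highest marker sum and the highest Il1a, Il1b and Il1rn. Embryonic LPS libraries 1 and 2 had marker sums of 216 and 1134 CPM. Il1a stood at 322 and 350 CPM in them, Il1b at 324 and 419 CPM and Il1rn at 64.7 and 59.1 CPM. Within adult LPS the order of libraries 1, 3 and 2 was the same for the marker sum and for all 3 genes. From PBS to LPS the adult sums moved by little (206 to 221, 22.1 to 17.9 and 52.0 to 52.6 CPM) while these transcripts were higher with LPS in every pair. The embryonic sums moved more and in both directions (273 to 216, 511 to 1134 and 3217 to 2367 CPM), and the 3 transcripts were again higher with LPS in every pair. With the block, 3 of the 14 markers (Ptprc, Emr1 and Fcer1g) rose with LPS in embryonic stroma and 1 (Cx3cr1) fell, where 9.43% of all genes rose and 3.11% fell, and in adult stroma 0 of the 14 passed. Mesothelial markers (Msln, Upk3b and others, 5 of 5 matched) summed to 1045, 273 and 439 CPM in adult LPS libraries 1 to 3 and 119, 374 and 124 CPM in the embryonic ones. Adult library 1 was highest and library 2 lowest for this sum, as for adult Il33 and Il1rl1. Embryonic LPS library 2 was the highest of its group for this sum and the lowest for Il33 (1.11 CPM) and Il1rl1 (6.25 CPM). Endothelial markers (6 of 6 matched) summed to 12.7, 734 and 180 CPM in adult and 13.2, 31.5 and 28.7 CPM in embryonic LPS libraries. Their adult order was the opposite, with library 1 lowest and library 2 highest. Adult LPS library 1 lay below every embryonic LPS library for the endothelial sum. It held the most Il33 (11.9 CPM) and Il1rl1 (83.3 CPM) of the LPS libraries, and library 2 held the least of both among adult LPS libraries. The part of these cell types in the results was not tested.

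**Figure D3:**
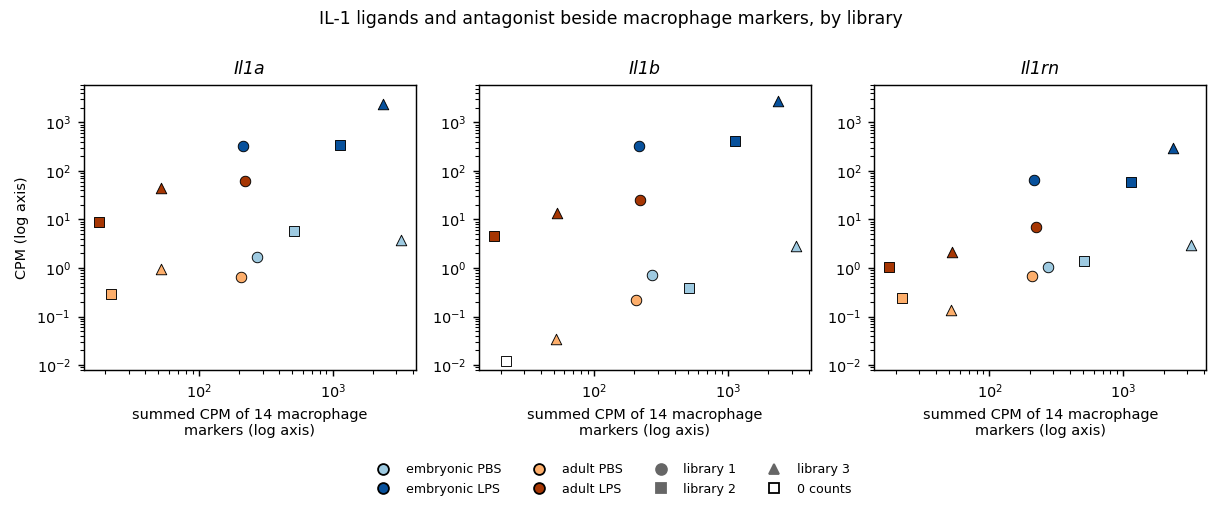
Il1a, Il1b and Il1rn (CPM, log axis) against the summed CPM of 14 macrophage markers (log axis) in the 12 libraries, with groups by colour and library numbers by symbol; the open symbol is a library with 0 counts. At sums of 216 and 221 CPM, embryonic LPS library 1 lies above adult LPS library 1 for all 3 genes. The levels of single markers within these sums differ between the libraries.

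The order of transcript levels within the family changed with treatment. Per kilobase of exon, embryonic PBS stroma held most Il1rap (4.50 ± 1.11 CPM per kb, SD, n = 3), then Il1r1 (3.18 ± 0.995), Il18 (2.23 ± 1.84) and Il1a (1.90 ± 1.03), neighbours whose library values overlapped. Adult PBS stroma held most Il1r1 (12.6 ± 4.02 CPM per kb), then Il18 (8.45 ± 3.5) and Il1rap (4.21 ± 0.761), the first 2 of which overlapped. Il1b was the lowest there (0.0624 ± 0.0872 CPM per kb). With LPS, Il1b (875 ± 1041 CPM per kb) and Il1a (522 ± 609) led in embryonic stroma, followed by Il1rn (52.7 ± 51.7) and Il1r1 (12 ± 6.43), library 3 being the highest for the first 3 and the values of Il1b and Il1a overlapping. In adult LPS stroma Il1r1 still led (28.3 ± 9.58 CPM per kb), ahead of Il1a (19.5 ± 13.8) and Il1b (10.5 ± 7.37), each overlapping the one before it.

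Among the LPS libraries of a stage, proportions between Il1a, Il1b and Il1rn varied less than their levels. Per kilobase, the Il1b to Il1a ratio was 1.47, 1.74 and 1.70 in embryonic LPS libraries and 0.574, 0.766 and 0.441 in adult LPS libraries. Il1b was thus the more abundant agonist in each embryonic LPS library and Il1a in each adult one. The ratio of the antagonist Il1rn to the sum of both agonists was 0.0594, 0.0449 and 0.0341 in embryonic LPS libraries and 0.0520, 0.0486 and 0.0249 in adult LPS libraries. These ranges overlapped, and the means were 0.0461 ± 0.0127 and 0.0418 ± 0.0148 (SD, n = 3). With PBS the antagonist ratio was higher in each library, at 0.281, 0.162 and 0.275 in embryonic and 0.518, 0.608 and 0.0991 in adult stroma, the adult values resting on at most 28 counts of any of the 3 genes. The decoy to receptor ratio, Il1r2 over Il1r1, was at most 0.0411 in any library. These ratios were not tested.

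**Figure D4:**
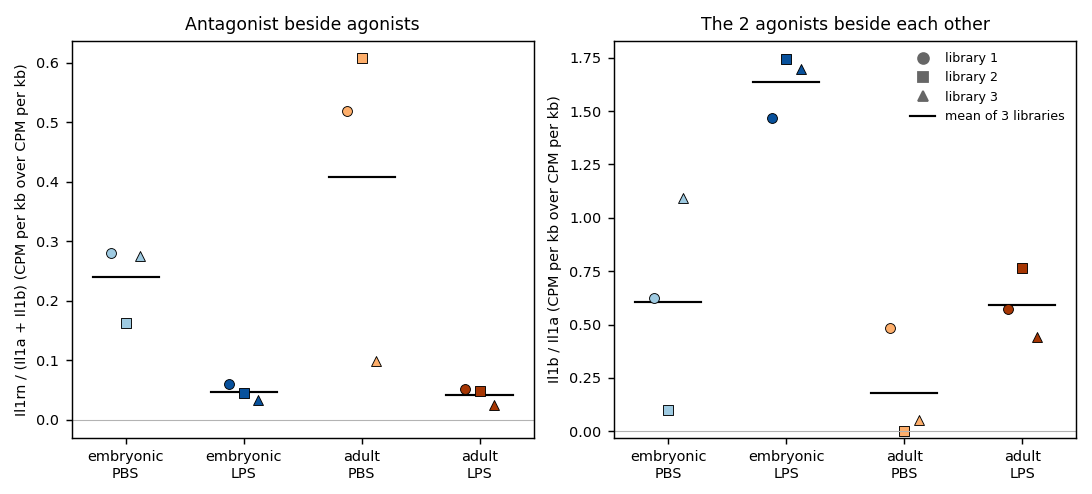
Ratio of Il1rn to the sum of Il1a and Il1b (left) and of Il1b to Il1a (right), each from CPM per kilobase, with 1 point per library and a line at the mean of 3 libraries. The antagonist ratio lies between 0.0249 and 0.0594 in all 6 LPS libraries, and the Il1b to Il1a ratio is above 1 in each embryonic LPS library and below 1 in each adult LPS library.

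Across the 12 libraries the log2 CPM of Il1a and Il1b correlated at r = 0.981, Il1b and Il1rn at 0.969, and Il1r1 and Il1rl1 at 0.817. Outside the family, the genes most like Il1a were Tnf (r = 0.985) and Ccl4 (0.984), both inflammatory cytokine genes, and those most like Il1b were Cd69 (0.991) and Mx1 (0.989). Il1rn was most like AA467197 (0.985) and Niacr1 (0.977), and Il1rl1 was most like Bdkrb1 (0.957), which encodes a bradykinin receptor, and Plau (0.950), which encodes urokinase. For Il33 they were Gstt1 (0.979) and Ifi27l1 (0.975), for Il18 Agtrap (0.975) and Phactr1 (0.917), for Il1r1 9130008F23Rik (0.942) and Cachd1 (0.942), and for Il1rap A130040M12Rik (0.963) and Ythdf2 (0.910). These coefficients describe 12 libraries that share stage, treatment and culture, and carry no p.

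Other genes of the pathway were counted from lists. Of 12 further family genes, 3 passed the filter (Il1rl2, Il18rap and Il18bp), and Il18rap, a subunit of the IL-18 receptor, rose in embryonic stroma. Its levels were 3.22, 3.80 and 5.24 CPM with LPS and 0.573, 1.10 and 0.658 CPM with PBS, without overlap (log2 fold change 2.39, SE 0.37, edgeR adjusted p = 0.00863). With the block all 3 rose in embryonic stroma and 1 (Il18rap) in adult stroma, where without it the count was 0. With the block, 9.43% of all genes rose in embryonic and 4.69% in adult stroma, and without it 2.67% and 0.598%. The genes listed as Il1f5 and Il1f8 had no count in any library, and Il1f6, Il1f9 and Il1f10 had at most 3. Il18r1 reached 64 and Sigirr 49 counts, both in adult LPS library 2.

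Of 13 genes that process or release IL-1, all tested, 2 rose in embryonic stroma (7 with the block) and 0 in adult stroma (4 with the block), and none fell. Shares of all genes called higher were 2.67% in embryonic (9.43% with the block) and 0.598% in adult stroma (4.69% with the block). Nlrp3, the inflammasome sensor, stood at 16.5, 96.2 and 209 CPM with LPS and 1.72, 1.28 and 7.03 CPM with PBS in embryonic stroma (log2 fold change 5.00, SE 1.08, edgeR adjusted p = 0.0371). Casp4, which encodes the caspase that senses intracellular LPS, stood at 7.92, 16.9 and 50.1 CPM with LPS and 0.241, 0.457 and 1.26 CPM with PBS (5.25, SE 0.78, adjusted p = 0.00709). In adult stroma Casp4 had 19.4, 26.0 and 21.6 CPM with LPS and 3.59, 5.59 and 3.20 CPM with PBS. The adult groups did not overlap, and the log2 fold change was 2.44 (SE 0.67, edgeR adjusted p = 0.232; 3.34e-05 with the block). Casp4 was the gene of this list that passed the interaction with the block (2.76, SE 0.21, adjusted p = 0.00119). The median log2 fold change of the 13 was 0.55 in embryonic and 0.25 in adult stroma, against -0.00027 and -0.0075 over all genes tested.

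Among all genes tested, 2.67% were called higher in embryonic stroma (9.43% with the block) and 0.598% in adult stroma (4.69% with the block). Of 16 genes that relay the receptor signal, 2 rose in embryonic stroma (5 with the block) and 0 in adult stroma (1 with the block, Irak3). They were Myd88, the adaptor, at 40.9, 55.4 and 143 CPM with LPS and 18.1, 17.5 and 23.7 CPM with PBS (log2 fold change 2.01, SE 0.42, edgeR adjusted p = 0.031), and Peli1, a ubiquitin ligase of the pathway (2.30, SE 0.46, adjusted p = 0.0261). Embryonic LPS library 3 was highest for both, and the groups did not overlap. Medians of the list were 0.08 in embryonic and 0.07 in adult stroma. Of 23 genes known to respond to IL-1 in fibroblasts, which LPS also induces directly, 17 rose in embryonic stroma (22 with the block). In adult stroma 11 of them rose (22 with the block). The shares of all genes were those given above for the relay list. The median log2 fold changes of the 23 were 4.44 in embryonic and 3.69 in adult stroma. The chemokine genes Cxcl1 and Cxcl2 were among the largest. Cxcl1 reached 478, 200 and 523 CPM in embryonic and 1111, 729 and 722 CPM in adult LPS libraries, and stayed under 1 CPM in every PBS library. Cxcl2 reached 301, 298 and 910 CPM in embryonic and 188, 126 and 151 CPM in adult LPS libraries, with 4, 15 and 24 counts in embryonic and 1, 0 and 3 counts in adult PBS libraries. Csf2, which encodes GM-CSF, had 364, 186 and 424 counts in embryonic and 1795, 344 and 649 counts in adult LPS libraries, against 0 in the embryonic and 0, 0 and 1 in the adult PBS libraries. With LPS, Cxcl1 was thus higher in each adult than in any embryonic library, Cxcl2 was higher in each embryonic than in any adult library, and neither passed the test between the stages. Between the stages with LPS, 1 gene of the 23 passed as higher in embryonic stroma, where 3.04% of all genes were called higher. It was Mmp13 (log2 fold change 4.97, edgeR adjusted p = 0.0273). With PBS 5 of the 23 passed, all lower in embryonic stroma, where 2.57% of all genes were called lower. Medians between the stages were -1.52 with PBS and -0.39 with LPS, against 0.02 over all genes tested in both. Replicate numbers were also used as a block across stages, although they did not pair the libraries across stages. That block called 6 lower with PBS (6.83% of all genes called in either direction). With LPS, that block called 1 higher and 2 lower (8.12%).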

How the data were processed

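The authors trimmed single-end reads of stranded poly(A) libraries, mapped them with STAR to GRCm38.p6 (mm10 in the submitters' processing notes), kept unique reads with at most 1 mismatch, and deposited raw counts per gene, 1 table per library, without normalization. Counts on the sense strand were used. Rows that name no gene were left out (unmapped 1.10% to 2.49%, mapped to several places 8.45% to 9.37%, outside genes 7.49% to 8.38% and ambiguous 0.301% to 0.378% of reads). Groups and replicate numbers came from the labels, and dose and time from the protocols.

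The 13038 of 23329 genes that exceeded 0.5 CPM throughout 1 or more groups were tested in R 4.3.3 with edgeR 4.0.16, using TMM scaling, 1 model of 4 groups over 12 libraries, the quasi-likelihood test with Benjamini-Hochberg adjustment over the 13038 genes and a call threshold of 0.05. The SE is the absolute log2 fold change over the square root of F. Log2 CPM used a prior count of 2. Replicate numbers were checked for pairing by the correlation of deviations from group means. Same-numbered LPS and PBS libraries correlated at 0.710 to 0.784 in embryonic and 0.610 to 0.850 in adult stroma, so the numbers within a stage were used as a block; the sources used here do not state that they mark shared cultures. Without the block, the p-values measure the spread between libraries within a group, pooled over the 4 groups and estimated partly from other genes. With the block within a stage, they measure the spread of the LPS to PBS differences between same-numbered pairs, pooled over both stages. No 2 libraries of a group agreed within sampling noise.

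Exon lengths came from the union of GENCODE M21 exons, which may differ from the authors' annotation, and isoforms were not separated. Promoters were matched by symbol to RefSeq for 9 of 9 members, and other names through RefSeq synonyms. The members and the lists of genes were chosen with earlier results of these data known. Named genes were all members, up to 3 called genes of each list with the largest change in each LPS comparison, further family genes with counts, and the 2 genes outside the family most correlated with each tested member; Mmp13, Irak3, Cx3cr1, Ptprc, Emr1 and Fcer1g were named for their calls after their values were seen. Alternatives were the block, DESeq2 1.42.0, its size factors, counts on either strand, no filter on low counts, a minimum fold, each stage alone and each library left out. The edgeR script was tested on simulated data. Figures were drawn with matplotlib. Flow cytometry, qPCR and co-culture experiments were not analysed here.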

Additional observations from a re-analysis of the deposited data

Results flagged for a closer look

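Il18 was higher with LPS in each of the 3 embryonic pairs and lower in each of the 3 adult pairs, a pattern that 1.65% of all genes tested shared. The pair differences in log2 CPM were 1.08, 1.08 and 2.41 in embryonic and -0.15, -0.16 and -0.31 in adult stroma. The stage by LPS interaction was 1.91 (SE 1.28, edgeR's quasi-likelihood test, adjusted p = 1) and did not pass. With the replicate block it was 1.87 (adjusted p = 0.0789), and with the block it passed without embryonic pair 2 (2.36, adjusted p = 0.0226) or embryonic pair 3 (1.30, adjusted p = 0.0429). The counts behind it were low in embryonic pair 1, with 24 counts for LPS and 12 for PBS.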

How the results depend on the processing

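The number of called members depended on the setting. In embryonic stroma it was 3, then 6 with the block and 4 with DESeq2 (5.26% of genes). It was 0 with each stage fitted alone, 2 to 4 as 1 library was left out, and 5 to 6 with the block as 1 pair was left out. In adult stroma it was 0, then 5 with the block, 4 with DESeq2 (2.26% of genes), 2 with each stage fitted alone, 0 to 2 as 1 library was left out and 2 to 6 with the block as 1 pair was left out. The interaction called 0 members, and with the block 0 to 2 as 1 pair was left out. Replicate numbers did not pair the samples across stages (correlations of -0.306 to -0.00220), and the block across stages called 2 members with PBS (6.83% of all genes) and 4 with LPS (8.12%). With PBS the 1 call became 0 when an absolute log2 fold change of 2 or more was also asked for or without the filter on low counts, 3 with DESeq2 (11.9% of genes), 0 to 1 as 1 library was left out and 1 to 3 with the block as 1 pair was left out. With LPS the 3 calls became 0 to 3 as 1 library was left out. With a library left out of a group of 3, the remaining libraries were assumed to vary like the other groups. Values that turned direction were all small or uncalled: Il33 in adult stroma (-0.039 with the block, -0.46 to 0.29 with 1 library left out and -0.20 to 0.08 with the block as well, among them -0.038, -0.034, -0.045 and -0.015), Il33 in embryonic stroma (-0.14 to 1.08) and in the interaction (-0.15 to 1.06), Il18 in adult stroma (-0.63 to 0.18) and between stages with LPS (-0.70 to 0.53, and -1.39 to 0.93 with the block, among them 0.88), Il1rap between stages with PBS (-0.065 to 0.28, and -0.13 to 0.27 with the block) and Il1rl1 in the interaction (-1.33 to 0.40). As ratios of counts rather than of levels per kilobase, Il1rn over the agonists was 0.0651 in adult LPS, 0.0784 in embryonic LPS and 0.373 in embryonic PBS, and Il1r2 over Il1r1 was 0.00098 in adult LPS and 0.00467 in embryonic PBS. Of 256 member values under the other settings, 229 kept their direction and side of the threshold, 22 newly passed, 4 no longer passed and 1 turned; of 720 with a library or pair left out, 604, 68, 25 and 23 did. The cause of these changes was not tested. Depth limits Il1r2 and adult PBS Il1b, which had at most 7 and 6 counts in PBS libraries.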
